A study of Mus musculus with 288 samples.

Results

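Pecam1, Cdh5, Tie1, Tek, Cldn5, Vwf, Emcn, Egfl7, Esam and Ramp2, 10 genes that mark the endothelium, were followed in 6 tissues of mice that had breathed room air or had been exposed to intermittent hypoxia (IH). They were taken by gene name, and all 10 were found among the 35904 genes measured. The mice were male wild type C57BL/6J, 8 weeks old, and carried no transgene. During the light phase of 7 days, IH cycled the inhaled oxygen between 21% and 8%, whereas the normoxia mice stayed in room air. All mice then spent 2 days in darkness and room air, and lung, heart, muscle, kidney, liver and cerebellum were taken on the second of these days. Poly(A) RNA was sequenced at 8 labelled times 3 hours apart (1:30 to 22:30), with 3 libraries per time, tissue and treatment. This gave 24 libraries per tissue and treatment and 288 in all. The labels do not say which libraries came from the same mouse. Gene positions below are those of GENCODE on GRCm38.

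Endothelial cells line every blood vessel, control the passage of water, solutes and leukocytes, and keep blood from clotting. Their shared identity rests on junction proteins, on receptors for angiopoietins and adrenomedullin, and on secreted and surface proteins of the vessel wall, many of them under ETS and SOX transcription factors. Endothelium also differs between organs: it is sealed by tight junctions in the brain, fenestrated in kidney and liver, and spread over a very large capillary surface in the lung. In whole tissue, a lower level of such a gene can come from fewer endothelial cells or from less RNA per cell, and these cannot be told apart here.

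The deposited values were TPM, which are scaled to transcript length and to the library total. Libraries summed to between 989211 and 999188 TPM, their depth is unknown, and no member was at 0 in any library. Between 19080 and 29241 genes had a TPM above 0 in a library, and this number moved with treatment in lung and heart. TPM was scaled so that the median gene kept its level between libraries (scaled TPM). These were the libraries of 1 tissue or, where tissues were compared, of all tissues in the comparison. For tests, scaled TPM was taken as log2(value + 0.5). Fold changes below are on that scale, which understates changes of low genes. The markers of lung epithelium, cardiomyocytes, skeletal muscle fibres, kidney tubules, hepatocytes and cerebellar neurons each summed highest in their own tissue by median. For lung epithelium the median was 168518 TPM in normoxic lung and 1.31 TPM in normoxic heart. Some libraries lay far lower. Hepatocyte markers summed to as little as 1095 TPM in IH liver, against at least 46740 in normoxia. Neuron markers summed to as little as 440 TPM in IH cerebellum, against at least 2831 in normoxia. In liver 1 IH library, and in cerebellum 1 IH library, stood apart. They were kept in the main results, and values without them are given where they changed a count.

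In normoxia all 10 members were highest in the lung by mean TPM. As background, 82.3% of tests over all 18080 genes and 15 pairs of tissues passed, and 69% to 89.9% did for single pairs. For 9 members the 24 lung libraries lay entirely above those of the next tissue, and Emcn was the exception. The 82.3% refers to tests between pairs. No share of all genes is given for being highest in lung or for ranges apart, so both counts are descriptions. The lowest mean was in the liver for 8 members, in the kidney for Vwf and in the cerebellum for Cdh5. Of 50 comparisons of neighbours in these orders, 39 differed in the same direction on scaled TPM and 5 did not pass the test. The other 6 passed in the opposite direction. They were the last pairs of Tie1, Tek, Cldn5 and Egfl7, and lung against kidney and kidney against heart for Emcn. The lower ends of several orders, and the top of that of Emcn, thus depended on the scaling, which here took the median gene as level across tissues.

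Among the junction proteins, Pecam1 (chr11:106654217-106750628), a homophilic adhesion molecule, averaged 334 ± 63.4 TPM (SD, n = 24) in lung, 62.7 ± 14.2 in heart and 54.6 ± 13.3 in muscle. It was 18.7 ± 3.18 in kidney, 16.0 ± 10.0 in cerebellum and 5.57 ± 1.79 in liver, and cerebellum and liver did not differ beyond their spread (adjusted p = 0.116 on scaled TPM). Cdh5 (chr8:104101625-104144511), VE-cadherin of the adherens junction, averaged 304 ± 80.9 TPM in lung, 55.8 ± 15.6 in muscle and 43.1 ± 13.0 in heart. Muscle and heart were not told apart (adjusted p = 0.706), and the other tissues were far lower, at 6.25 ± 2.54 in liver, 6.13 ± 1.94 in kidney and 5.28 ± 2.53 in cerebellum. Esam (chr9:37528078-37538319), another adhesion molecule of endothelial junctions, averaged 189 ± 16.8 TPM in lung, 42.3 ± 11.3 in heart, 36.8 ± 7.33 in muscle, 16.9 ± 2.38 in kidney, 12.3 ± 2.32 in cerebellum and 5.71 ± 0.932 in liver. The last pair of this order was not told apart (adjusted p = 0.251).

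Cldn5 (chr16:18776847-18778262), the main claudin of the blood-brain barrier, had the highest cerebellar mean of the members. It averaged 605 ± 79.0 TPM in lung, but cerebellum came second with 83.9 ± 27.1, followed by heart with 41.6 ± 17.3, muscle with 38.4 ± 14.7, kidney with 11.6 ± 1.55 and liver with 8.83 ± 1.36. Cerebellum and heart were not told apart on scaled TPM (adjusted p = 0.143). Of the summed TPM of the 10 members, Cldn5 made up 37.3% ± 7.06 in cerebellum, 19.3% ± 2.13 in lung and 6.74% ± 0.601 in kidney.

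Of the receptor genes, Tie1 (chr4:118471191-118490061), an orphan partner of Tek, averaged 119 ± 18.1 TPM in lung, 33.8 ± 10.46 in heart, 24.5 ± 6.08 in muscle, 8.31 ± 1.79 in kidney, 5.61 ± 2.15 in cerebellum and 3.96 ± 1.15 in liver. Tek (chr4:94739289-94874976), the angiopoietin receptor, averaged 132 ± 26.5 TPM in lung, 18.0 ± 5.37 in heart, 14.9 ± 3.52 in muscle, 9.80 ± 1.63 in kidney, 4.64 ± 1.17 in cerebellum and 2.69 ± 0.988 in liver. All their neighbours differed, although on scaled TPM both genes were lower in cerebellum than in liver. Ramp2 (chr11:101246028-101259546), the partner that turns the calcitonin receptor-like receptor into an adrenomedullin receptor, had cerebellum above kidney. It averaged 573 ± 100.3 TPM in lung and 53.4 ± 12.6 in heart, a ratio of 10.7. Muscle (44.0 ± 10.0) and cerebellum (32.8 ± 8.62) followed, and kidney (14.4 ± 1.74) and liver (8.88 ± 1.24) were not told apart (adjusted p = 0.262).

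Of the secreted and surface proteins, Vwf (chr6:125546774-125686679), von Willebrand factor, which tethers platelets and is stored in endothelial Weibel-Palade bodies, averaged 241 ± 72.1 TPM in lung, 52.5 ± 15.7 in heart, 20.1 ± 5.36 in muscle and 11 ± 2.68 in cerebellum. It was 3.26 ± 1.03 in liver and only 1.08 ± 0.315 in kidney, where it was 0.625% of the member sum. Emcn (chr3:137341067-137432185), the sialomucin endomucin of capillary and venous endothelium, averaged 51.9 ± 7.81 TPM in lung, 42.4 ± 5.65 in kidney and 38.5 ± 9.65 in heart. On scaled TPM this order turned round, with lung below kidney by a log2 difference of -0.42 (adjusted p = 9.0e-06) and kidney below heart by -0.32 (adjusted p = 4.8e-04). Emcn made up 24.6% of the member sum in kidney and 1.66% in lung. Egfl7 (chr2:26580014-26593120), a secreted matrix protein, averaged 589 ± 73.4 TPM in lung, 170.4 ± 57 in heart, 86.5 ± 9.51 in muscle, 43.9 ± 10.3 in kidney, 38.5 ± 5.23 in cerebellum and 22.7 ± 3.49 in liver. Outside the lung it was the most abundant member in each tissue except cerebellum, where Cldn5 was higher.

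**Figure D1:**
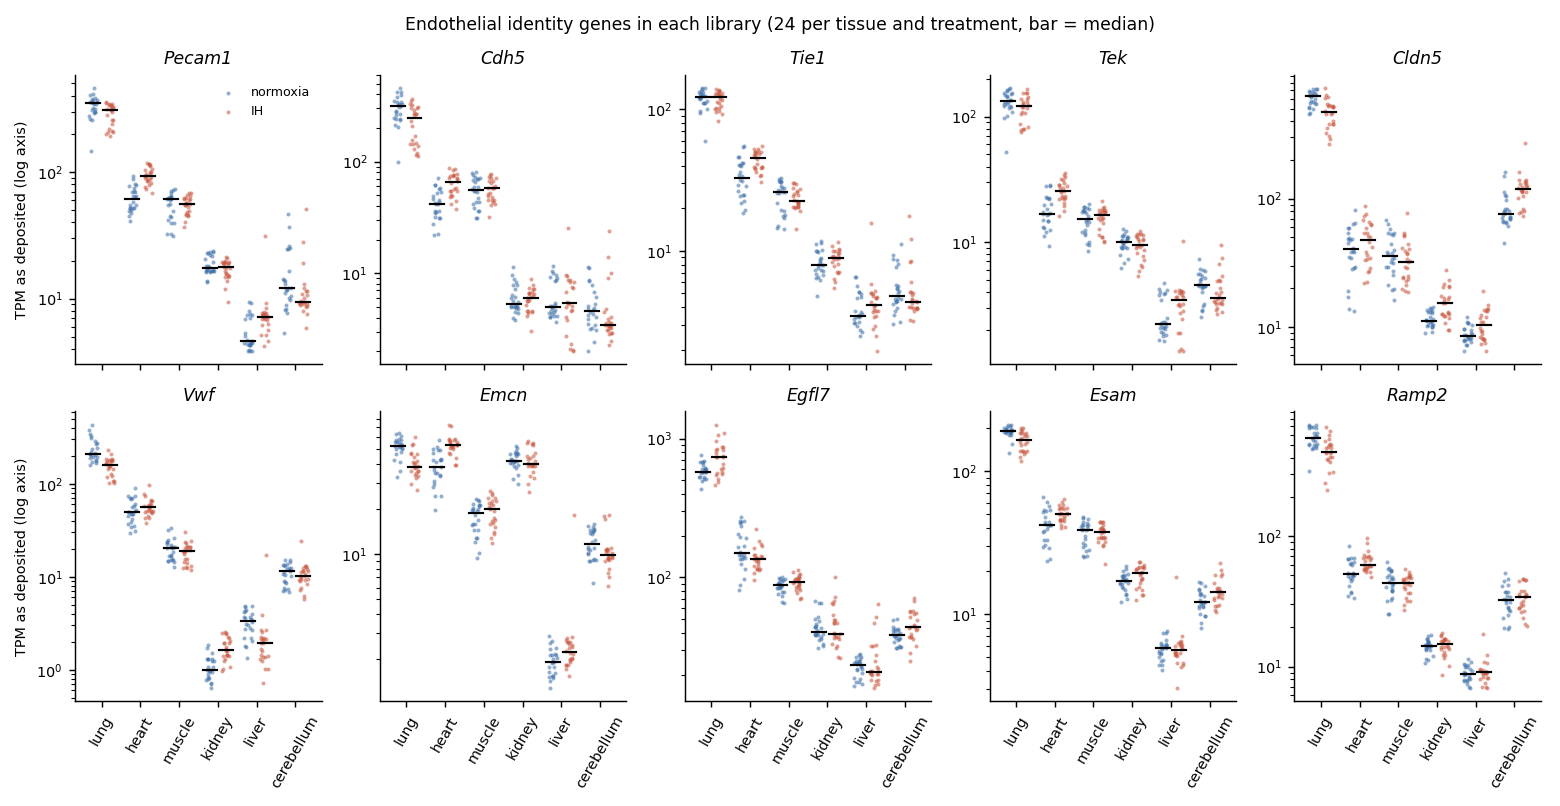
TPM as deposited of each member (log axis) in every library of the 6 tissues, with normoxia in blue and IH in red, 24 libraries each, and bars at the medians. All 10 members sit highest in lung by their mean in normoxia, Cldn5 stands second in cerebellum, and Emcn in kidney and heart overlaps the lung.

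Start-site sequences are shown for 3 members, 2 that fell with IH in the lung (Emcn and Cldn5) and 1 that did not (Egfl7). RefSeq promoter windows (GRCm38.p6) were found for Cldn5, Egfl7, Emcn, Tek and Tie1 and not for Pecam1, Cdh5, Vwf, Esam and Ramp2. Each line gives the 250 bases before a start site on the gene's strand, and capitals mark the ETS type motif AGGAAG or its reverse complement CTTCCT. The Egfl7 window is 1 of 3 for that gene and lies inside its annotated span. They lie at chr3:137340828-137341077 (Emcn, plus strand), chr16:18776597-18776846 (Cldn5, plus strand) and chr2:26583615-26583864 (Egfl7, plus strand).
Emcn: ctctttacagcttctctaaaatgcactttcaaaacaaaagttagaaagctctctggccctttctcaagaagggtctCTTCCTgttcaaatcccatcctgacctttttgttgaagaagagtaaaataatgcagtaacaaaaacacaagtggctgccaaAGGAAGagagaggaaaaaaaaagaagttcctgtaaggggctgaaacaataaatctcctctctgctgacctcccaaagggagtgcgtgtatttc
Cldn5: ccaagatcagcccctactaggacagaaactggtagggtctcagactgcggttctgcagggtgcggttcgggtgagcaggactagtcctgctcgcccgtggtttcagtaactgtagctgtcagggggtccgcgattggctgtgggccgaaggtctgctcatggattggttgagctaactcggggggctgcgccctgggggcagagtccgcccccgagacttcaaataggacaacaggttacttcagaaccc
Egfl7: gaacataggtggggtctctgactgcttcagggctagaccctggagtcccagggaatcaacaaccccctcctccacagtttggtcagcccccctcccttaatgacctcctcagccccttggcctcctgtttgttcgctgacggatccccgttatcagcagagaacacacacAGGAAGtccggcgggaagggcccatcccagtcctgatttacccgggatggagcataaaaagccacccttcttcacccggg
The motif was found on either strand in 4 of the 7 member windows, of Egfl7, Emcn and Tie1, and in 35.4% of all 32851 windows. The letters CACGTG, an E-box, were in 0 of the 7 and in 7.15% of all windows. ACGTG, the core of hypoxia response elements and contained in CACGTG, was in 0 of the 7 and in 19.6% of all windows. These matches are descriptions of short windows only.

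The treatment comparison asked how the mean level over the day changed with IH. In lung, 9 of the 10 members fell, each at 8 of 8 time points, where 41.5% of 15426 genes fell and 28.9% rose. With a change of at least 1.5-fold also required, Vwf, Cdh5, Cldn5, Ramp2 and Emcn passed, against 4.39% of all genes lower by this rule. The median log2 change of the members was -0.60, compared with -0.08 over all genes tested. Egfl7 was the member that did not pass. The scaling mattered here, since on TPM as deposited the medians were -0.30 for members and 0.21 for all genes. On that scale 7 members fell (10.7% of all genes did) and Egfl7 rose (55% did). Tek and Tie1 were then lower at 5 of 8 time points and Pecam1 at 7 of 8. No share of all genes is given for being lower at 8 of 8 time points.

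Vwf had the largest change. Its scaled TPM in lung was 157 to 480.4 (median 229.6) in normoxia and 86.4 to 215 (median 142) with IH. All 24 IH libraries were below the normoxia median and 16 were below every normoxia library. The log2 change was -0.91 (SE 0.12, adjusted p = 2.4e-09). The junction genes followed. Scaled Cdh5 was 135 to 461 (median 339) in normoxia and 81.1 to 314 (median 232) with IH. All 24 IH libraries were below the normoxia median, and 9 were below all normoxia libraries. Its log2 change was -0.77 (SE 0.14, adjusted p = 5.9e-06). Scaled Cldn5 was 531 to 819 (median 662) in normoxia and 226 to 729 (median 425) with IH. Here 21 IH libraries were below every normoxia library, with a log2 change of -0.70 (SE 0.09, adjusted p = 3.2e-09). Scaled Esam was 181 to 237 (median 207) in normoxia and 103 to 182 (median 152) with IH. The groups were nearly apart, with 23 of 24 IH libraries under the normoxia range, and the log2 change was -0.53 (SE 0.05, adjusted p = 1.2e-11). Scaled Pecam1 was 198 to 464 (median 373) in normoxia and 139 to 327 (median 278) with IH. The ranges overlapped, though all 24 IH libraries were below the normoxia median, and the log2 change was -0.53 (SE 0.08, adjusted p = 3.6e-07).

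Of the receptor genes in lung, Ramp2 fell most. Its scaled TPM was 434 to 789 (median 603) in normoxia and 165 to 624 (median 392) with IH. Of the IH libraries, 15 were below all of normoxia, and the log2 change was -0.68 (SE 0.10, adjusted p = 8.5e-08). Scaled Tek was 70.5 to 176 (median 145) in normoxia and 64.1 to 141 (median 111) with IH. The ranges overlapped widely and only 4 IH libraries were below all of normoxia, with a log2 change of -0.46 (SE 0.09, adjusted p = 1.8e-05). Scaled Tie1 was 81.3 to 151 (median 131) in normoxia and 72.3 to 124 (median 108) with IH, with 2 IH libraries below all of normoxia. Its log2 change was -0.32 (SE 0.06, adjusted p = 4.1e-06). On TPM as deposited neither Tek (-0.16, adjusted p = 0.147) nor Tie1 (-0.02, adjusted p = 0.816) passed.

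Emcn, the remaining surface protein, had a scaled TPM in lung of 39.8 to 72.0 (median 57.6) in normoxia and 19.6 to 54.1 (median 34.9) with IH. Of the IH libraries, 18 were below all of normoxia, and the log2 change was -0.67 (SE 0.08, adjusted p = 1.4e-10). Egfl7 behaved differently. Its scaled TPM was 449.9 to 840.2 (median 642) in normoxia and 406 to 1152 (median 643) with IH. The IH libraries spread more widely and were split evenly by the normoxia median, 12 below and 12 above. The log2 change was 0.00 (SE 0.09, adjusted p = 0.998), with a 95% interval from -0.17 to 0.17. On TPM as deposited it rose by 0.30 (adjusted p = 1.8e-03).

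The number of genes detected moved with treatment in lung, from 22694 ± 737 in normoxia to 25455 ± 1529 with IH (SD, n = 24). Within treatments, over 48 libraries that share this scaling, log2 deviations of the members were correlated with deviations of this number, taken without log. The values were -0.92 for Pecam1, -0.92 for Cdh5, -0.90 for Tek and -0.88 for Tie1. For Ramp2, Esam, Cldn5 and Emcn the values were -0.85, -0.83, -0.69 and -0.64. Vwf was least related (-0.31), and Egfl7 went the other way (0.72). With a term for detected genes in the model, 5 log2 changes turned sign, to 0.12 for Pecam1, 0.30 for Cdh5, 0.09 for Tie1, 0.21 for Tek and -0.43 for Egfl7. Without the term Egfl7 had been at 0.00, with no direction of its own. The falls of Vwf (-0.61), Emcn (-0.42), Cldn5 (-0.26) and Esam (-0.18) kept their direction, as did Ramp2 (-0.07). By the test under this term 4 members fell, Vwf, Emcn, Esam and Egfl7 (25.1% of all genes did), and 2 rose, Cdh5 and Tek (27.4%). Cldn5 (adjusted p = 0.053), Ramp2 (0.640), Pecam1 (0.092) and Tie1 (0.108) did not pass. This number and the treatment moved together, and its part in the lung result was not tested further.

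The lung changes also differed between replicate numbers. In 8 against 8 libraries of replicates 1, 2 and 3 alone, the log2 change of Cdh5 was -1.38, -0.89 and -0.02. Vwf changed by -0.69, -0.97 and -1.08 in the same subsets, and Egfl7 by 0.39, 0.09 and -0.48. The change of Cdh5 was near 0 in replicate 3, whereas that of Vwf was negative in all 3. The mean number of genes detected in the IH libraries was 26099, 26123 and 24143 in replicates 1, 2 and 3.

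**Figure D2:**
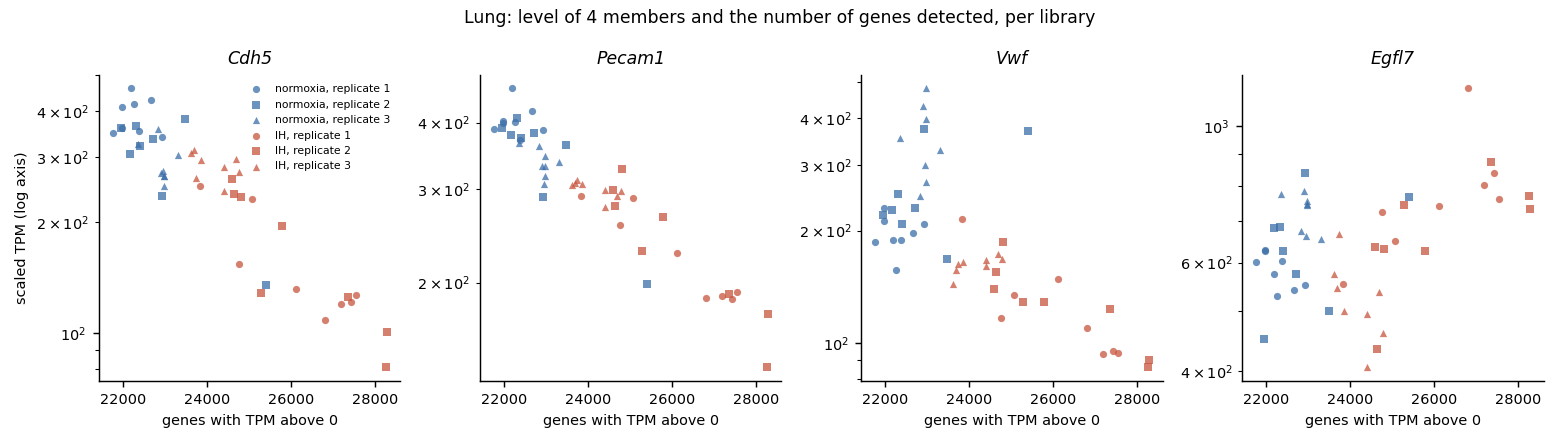
Scaled TPM (log axis) of Cdh5, Pecam1, Vwf and Egfl7 in each lung library against how many genes had a TPM above 0, by treatment (colour) and replicate number (marker). Cdh5 and Pecam1 fall along the axis within both treatments, Vwf less so, and Egfl7 is highest in IH libraries with the most genes detected.

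Other endothelial genes were taken from 12 lists of 104 genes, a few of them on more than 1 list. In lung, 69 of the 96 tested fell and 4 rose (41.5% and 28.9% of all genes did), with a median log2 change of -0.35. On TPM as deposited 29 fell and 13 rose (10.7% and 55% of all genes). With a term for detected genes 16 fell and 22 rose (25.1% and 27.4% of all genes). Of 15 endothelial transcription factors, 11 fell and 2 rose, led by Sox18 (-0.75), Sox7 (-0.66) and the flow-responsive Klf2 (-0.58). Of 20 further pan-endothelial genes 16 fell, among them the sialomucin Podxl (-0.70), the adhesion molecule Icam2 (-0.66) and the receptor Gpr182 (-0.71), and 1 rose. In the angiopoietin-Tie pathway 4 of 7 fell, including the ligand Angpt2 (-0.49) and the downstream factor Foxo1 (-0.51), and 0 rose. In the adrenomedullin pathway 4 of 5 fell, including the receptor Calcrl (-0.35) and the scavenger receptor Ackr3 (-0.75). On TPM as deposited 6, 5, 1 and 1 genes of these lists, in the order given, fell and 2, 2, 1 and 0 rose. With a term for detected genes their median log2 changes were 0.04, 0.08, 0.01 and -0.22.

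Of 11 junction partners in lung 9 fell, with plakoglobin, Jup, at -0.75 and beta-catenin, Ctnnb1, at -0.60. Of 8 genes of Weibel-Palade bodies and Vwf handling 6 fell, including Selp, P-selectin, at -0.49 and Plat, tissue plasminogen activator, at -0.63. Of 7 genes of lung vascular beds 6 fell, with the ligand Apln at -0.88 and Plvap, the diaphragm protein of fenestrae and caveolae, at -0.84. Of genes typical of other beds, 4 of 6 for brain, 4 of 7 for heart and muscle capillaries, 4 of 5 for kidney and 2 of 4 for liver sinusoid fell. Over all genes 41.5% fell in lung. On TPM as deposited 5 junction, 3 Weibel-Palade, 4 lung bed, 2 brain, 0 heart and muscle, 2 kidney and 0 liver sinusoid genes fell. In the same order 2, 1, 1, 0, 1, 1 and 1 rose (10.7% of all genes fell and 55% rose). With a term for detected genes the median log2 changes were 0.08, 0.09, -0.13, 0.25, 0.09, 0.11 and -0.08. Of 5 lymphatic genes 1 fell, Pdpn (-0.83), which alveolar epithelium also expresses.

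Markers of other cell types moved in lung as well, where 41.5% of all genes fell and 28.9% rose. Lung epithelium markers fell for 7 of 8 (median log2 change -0.76), with a median summed level of 168518 TPM (range 134043 to 262953) in normoxia and 144639 (range 33876 to 202269) with IH. Platelet and megakaryocyte markers, cells that also make Vwf and Esam, fell for 7 of 7, with a median summed level of 191 TPM (range 116 to 264) in normoxia and 162 (range 66.4 to 215) with IH. Red cell markers fell for 5 of 5, with a median summed level of 63132 TPM (range 37231 to 165167) in normoxia and 46657 (range 25749 to 174312) with IH. Mesothelium markers fell for 4 of 4, with a median summed level of 128 TPM (range 94.5 to 159) in normoxia and 103 (range 57.5 to 153) with IH. On TPM as deposited 6 of 8 lung epithelium, 7 of 7 platelet, 3 of 5 red cell and 3 of 4 mesothelium markers fell (10.7% of all genes did). Mural cell markers fell for 5 of 10, fibroblast markers fell for 3 and rose for 1 of 6, white cell markers fell for 3 of 8, and cardiomyocyte markers rose for 4 of 7. As deposited, 3 mural markers rose and 1 fell, 2 white cell markers rose and 1 fell, 1 fibroblast marker rose and 1 fell, and 6 cardiomyocyte markers rose (55% of all genes rose). Skeletal muscle fibre markers rose for 2 of 5, choroid plexus markers fell for 2 of 3 and the 1 neuron marker tested fell, and hepatocyte and kidney tubule markers did not pass. With a term for detected genes the median log2 change was 0.19 for lung epithelium, -0.93 for platelet and -1.02 for red cell markers. No marker was at 0 in all lung libraries, and the part of these cells in the result was not tested.

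In heart 5 members were higher with IH and 1 was lower. Pecam1, Cdh5, Tek, Emcn and Tie1 rose, where 28.0% of 12779 genes did, and Egfl7 fell, where 17.3% did. By the rule that also required 1.5-fold none passed (2.95% of genes did in either direction), whereas on TPM as deposited Pecam1 (0.61) and Cdh5 (0.59) did (2.55%). The median log2 change of the members was 0.23, compared with 0.04 over all genes. Scaled Pecam1 was 33.1 to 85.6 (median 64.1) in normoxia and 76.6 to 113 (median 88.7) with IH. All 24 IH libraries were above the normoxia median and 16 were above every normoxia library, with a log2 change of 0.49 (SE 0.07, adjusted p = 2.0e-07). Scaled Cdh5 was 14.0 to 62.8 (median 47.1) in normoxia and 38.9 to 82.9 (median 63.4) with IH. The groups overlapped, with 12 IH libraries above all of normoxia, and the log2 change was 0.46 (SE 0.11, adjusted p = 4.8e-04). Scaled Tek was 5.96 to 25.2 (median 18.9) in normoxia and 15.2 to 31.3 (median 25.1) with IH. Of its IH libraries, 12 were above all of normoxia, and the log2 change was 0.42 (SE 0.10, adjusted p = 6.5e-04). Scaled Emcn was 12.6 to 55.0 (median 42.2) in normoxia and 37.0 to 75.6 (median 51.9) with IH, and scaled Tie1 was 11.7 to 48.3 (median 36.5) in normoxia and 28.7 to 51.4 (median 42.3) with IH. In both, 22 of 24 IH libraries were above the normoxia median. The log2 change was 0.38 (SE 0.10, adjusted p = 2.4e-03) for Emcn and 0.29 (SE 0.10, adjusted p = 0.013) for Tie1.

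Egfl7 went the other way in heart. Its scaled TPM was 51.9 to 271 (median 173) in normoxia and 96.8 to 198 (median 123) with IH. The ranges overlapped fully, 19 IH libraries were below the normoxia median, and the log2 change was -0.36 (SE 0.12, adjusted p = 0.015). This fall did not pass on TPM as deposited (-0.24, adjusted p = 0.075), nor without replicate 1 or replicate 2. The remaining members did not pass, at 0.17 for Esam, 0.16 for Ramp2, 0.12 for Cldn5 and 0.03 for Vwf. On TPM as deposited Esam (0.29, adjusted p = 5.8e-03) and Ramp2 (0.29, adjusted p = 5.0e-03) passed too, so that 7 members rose (37.5% of genes did) and 0 fell (6.39%). The number of genes detected fell from 25124 ± 1719 in normoxia to 21447 ± 688 with IH, opposite to lung. With it as a term 0 of the 10 passed by limma (2.01% of all genes did in either direction), and the log2 changes of Cdh5 (-0.13), Tie1 (-0.17) and Tek (-0.13) turned sign. Its part in the heart result was not tested further.

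Of the 93 other endothelial genes tested in heart, 46 rose and 1 fell (28.0% and 17.3% of all genes did), with a median log2 change of 0.20. On TPM as deposited 66 rose and 0 fell (37.5% and 6.39% of all genes). With a term for detected genes 1 rose and 1 fell (2.01% of all genes in either direction). The pan-endothelial genes rose for 11 of 20, among them the phosphatase Ptprb (0.53), which acts on Tek and Cdh5, the matrix protein Mmrn2 (0.49) and Podxl (0.45). In the angiopoietin-Tie pathway 5 of 7 rose, including Angpt2 (0.42), and of the transcription factors 4 of 15 rose, including Foxo1 (0.35). Weibel-Palade body genes rose for 5 of 7, with endothelin, Edn1, at 0.51, and junction partners for 7 of 10, while 1 fell. Calcrl (0.34) was among 3 of 5 adrenomedullin pathway genes that rose, and lymphatic genes rose for 4 of 6, with Mmrn1 at 0.65. Of the vascular bed lists, 2 of 7 lung, 2 of 5 brain, 3 of 7 heart and muscle, 3 of 5 kidney and 1 of 3 liver genes rose.

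Mural cell markers rose with them in heart for 6 of 10 and fell for 1, with a median summed level of 330.1 TPM (range 233 to 513) in normoxia and 498 (range 331 to 701) with IH. Fibroblast markers rose for 5 of 6, with a median summed level of 549 TPM (range 325 to 765) in normoxia and 749.7 (range 531 to 1006) with IH, and mesothelium markers for 4 of 4. Cardiomyocyte markers rose for 2 of 7 tested, hepatocyte markers for 2 of 6, white cell markers for 1 of 6 and neuron markers for 1 of 3, and 1 of 4 platelet markers fell. Red cell, lung epithelium, skeletal muscle fibre and choroid plexus markers did not pass, and no kidney tubule marker was high enough to test. With a term for detected genes the median log2 change was -0.12 for mural and -0.05 for fibroblast markers. The part of these cells in the heart result was not tested.

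**Figure D3:**
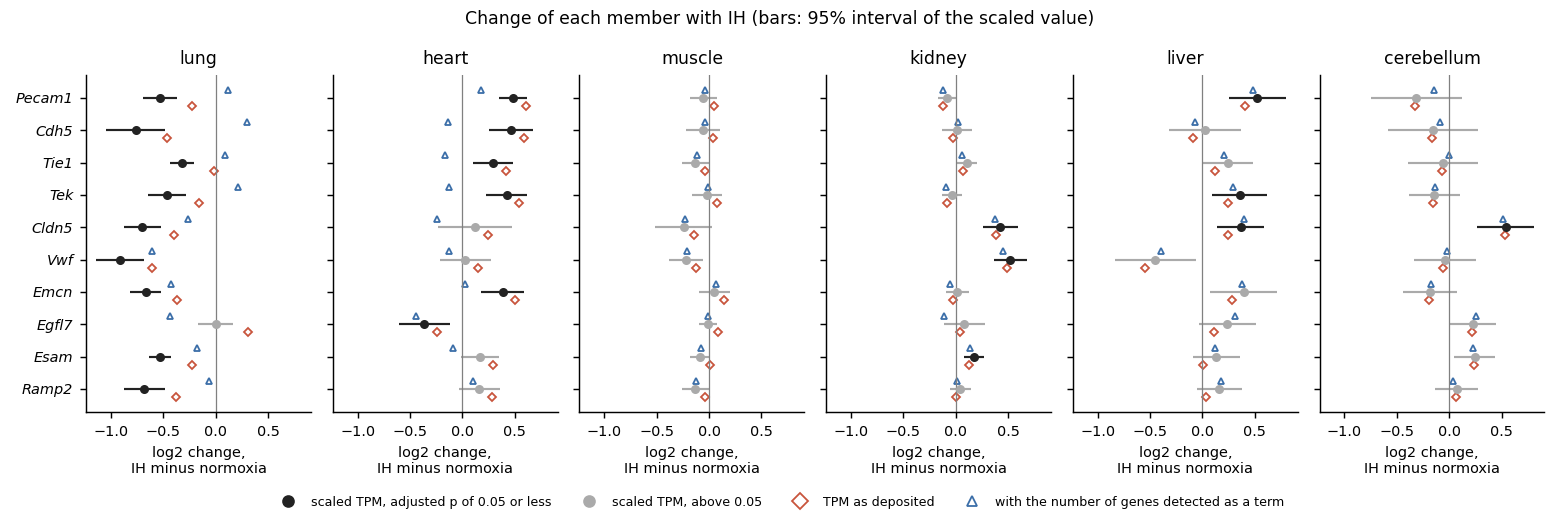
Log2 change with IH of each member in each tissue on scaled TPM (circles with 95% intervals, black where the adjusted p was 0.05 or less), on TPM as deposited (diamonds) and with a term for detected genes (triangles). In lung 9 circles lie below 0 while the triangles of Pecam1, Cdh5, Tie1 and Tek lie above it, and in heart the circles of Pecam1, Cdh5, Tie1, Tek and Emcn lie above 0.

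In kidney 3 members rose and 0 fell, where 8.25% of 12902 genes rose and 11.5% fell. Vwf, the member with the lowest kidney level, was 0.687 to 1.66 (median 0.993) in normoxia and 1.09 to 2.41 (median 1.69) with IH in scaled TPM. All 24 IH libraries were above the normoxia median, 12 were above every normoxia library, and the log2 change was 0.52 (SE 0.08, adjusted p = 6.4e-06). Scaled Cldn5 was 9.55 to 13.7 (median 11.4) in normoxia and 10.7 to 32.5 (median 14.7) with IH. The ranges overlapped, with 13 IH libraries above all of normoxia and a log2 change of 0.43 (SE 0.08, adjusted p = 3.1e-04). Scaled Esam was 12.8 to 19.1 (median 16.6) in normoxia and 14.2 to 26.9 (median 18.6) with IH. It rose by 0.17 (SE 0.05, adjusted p = 0.011), with 9 IH libraries above all of normoxia, and all 3 were higher at 8 of 8 time points. The call of Esam was lost on TPM as deposited (0.13, adjusted p = 0.224) and with a term for detected genes (0.13, adjusted p = 0.056), where Pecam1 passed as lower (-0.12, adjusted p = 0.045). The other members lay between -0.08 for Pecam1 and 0.11 for Tie1. Of 89 other endothelial genes 18 rose and 6 fell (3 and 3 on TPM as deposited), with Podxl at 0.38, which podocytes also express. Red cell markers rose for 5 of 5, with a median summed level of 4179 TPM (range 2796 to 6206) in normoxia and 6551 (range 3574 to 17429) with IH, and their part in the result was not tested. Of the other cell type lists in kidney, at most 1 gene each rose and at most 1 fell.

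In liver Pecam1, Cldn5 and Tek rose, where 10.9% of 11334 genes did, and 0 fell (13.3%). Scaled Pecam1 was 3.57 to 7.22 (median 4.75) in normoxia and 5.44 to 59.3 (median 6.90) with IH. All 24 IH libraries were above the normoxia median, 8 were above every normoxia library, and the log2 change was 0.53 (SE 0.14, adjusted p = 4.3e-03). Scaled Cldn5 was 4.94 to 12.6 (median 8.40) in normoxia and 5.69 to 36.0 (median 10.9) with IH, and scaled Tek was 1.61 to 3.91 (median 2.30) in normoxia and 1.44 to 19.1 (median 3.32) with IH. The ranges overlapped in both, with 18 and 21 of 24 IH libraries above the normoxia median. The log2 change was 0.36 (SE 0.12, adjusted p = 0.017) for Cldn5 and 0.36 (SE 0.13, adjusted p = 0.044) for Tek. The 3 genes were higher at 8 of 8 time points, but Tek at 7 of 8 on TPM as deposited. Scaled Vwf was 1.02 to 5.05 (median 3.54) in normoxia and 0.976 to 32.3 (median 1.85) with IH. It was the member with a negative value, -0.45 (adjusted p = 0.090), and 22 of 24 IH libraries were below the normoxia median. In deposited TPM, Vwf passed as lower (-0.55, adjusted p = 0.016) and Tek did not pass (0.25, adjusted p = 0.196), nor did Tek with a term for detected genes (0.29, adjusted p = 0.063). Without the IH library of replicate 2 at 13:30, which held the highest cardiomyocyte marker sum, 5 members passed. Vwf then fell (-0.61, adjusted p = 3.4e-04) and Emcn rose (0.24, adjusted p = 7.7e-03), while Pecam1 (0.40, adjusted p = 1.6e-05), Cldn5 (0.29, adjusted p = 0.015) and Tek (0.25, adjusted p = 0.029) also passed. Without all libraries of replicate 1 or of replicate 2, 0 members passed, and without replicate 3, 6 did. Here and below, counts with libraries left out are given without the share of all genes that passed. Of 76 other endothelial genes 18 rose and 10 fell, with Erg (0.55), an ETS factor of endothelium, Calcrl (0.55) and Gpihbp1 (0.77), which anchors lipoprotein lipase on capillaries, among those that rose.

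Markers of other organs also rose in liver. Cardiomyocyte markers rose for 6 of 6 tested, with a median summed level of 12.3 TPM (range 5.31 to 52.7) in normoxia and 33.8 (range 22.7 to 6597) with IH. Kidney tubule markers rose for 3 of 3 tested, with a median summed level of 3.803 TPM (range 0.951 to 114) in normoxia and 83.2 (range 38.0 to 409.7) with IH. The levels were low in most libraries but higher with IH in each list. Red cell markers rose for 4 and fell for 1 of 5, white cell markers rose for 3 of 4, mural markers for 2 of 6, and 1 of 6 hepatocyte markers, Alb (-0.74), fell. Hepatocyte markers had a median summed level of 54906 TPM (range 46740 to 87902) in normoxia and 37329 (range 1095 to 62371) with IH. The largest share of a library held by 1 gene reached 63.3% in IH liver and 5.69% in normoxic liver. Platelet (1 of 2), skeletal muscle fibre (1 of 3) and neuron markers (1 of 1) rose too, and fibroblast, lung epithelium, mesothelium and choroid plexus markers did not pass. Their part in the liver result was not tested.

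In cerebellum 1 member, Cldn5, rose, where 9.76% of 14892 genes did, and 0 members fell (5.24%). Its scaled TPM was 47.5 to 162 (median 75.3) in normoxia and 62.1 to 321 (median 122) with IH. The ranges overlapped, 20 IH libraries were above the normoxia median, and the log2 change was 0.54 (SE 0.14, adjusted p = 6.2e-03). With a correction for transcript length and GC content the value was 0.30 (adjusted p = 0.145) and no longer passed. Without replicate 1 or replicate 2, 0 members passed, and without replicate 3, 4 did. Of 90 other endothelial genes 3 rose and 4 fell, and among the cell type lists 1 gene, Foxj1 (0.51), rose. Summed cardiomyocyte markers spanned 70.8 to 3295 TPM in normoxic and 80.8 to 7468 TPM in IH cerebellum, and their part was not tested.

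In muscle 0 of the 10 members passed by limma, where 10.4% of 12824 genes changed in either direction. The unadjusted p was under 0.05 for 3 members, and a permutation test of mean TPM, adjusted over 60 comparisons, passed none. Without replicate 3, 3 members fell. Values ran from -0.24 for Cldn5 to 0.05 for Emcn. The 95% interval of Cldn5 was -0.51 to 0.03 and that of Pecam1 -0.18 to 0.07. Of 93 other endothelial genes 4 rose and 4 fell, with Fli1 (0.38), an ETS factor, among those that rose. Among the cell type lists, 1 mural gene rose and 2 of 7 skeletal muscle fibre genes fell, and the other lists held no call.

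The response of lung was set against that of each other tissue in 1 model. The log2 change was lower in lung than in heart for 9 members (48% of 12445 genes), than in muscle for 9 (41.6% of 12348), than in kidney for 9 (44.5% of 12214), than in liver for 8 (41.8% of 10795) and than in cerebellum for 7 (38.0% of 13178). In 0 of the 50 comparisons was it higher in lung by the test, where 14.4% to 20% of all genes were. Lung minus heart gave -1.28 for Cdh5, -1.10 for Emcn, -1.07 for Pecam1 and -0.99 for Vwf. It gave -0.94 for Tek, -0.90 for Ramp2, -0.88 for Cldn5, -0.75 for Esam and -0.67 for Tie1. The adjusted p of Cdh5 was 2.8e-09 and its SE 0.18. Egfl7 was 0.31 (adjusted p = 0.072), and on TPM as deposited it passed as higher in lung (0.55, adjusted p = 8.6e-04). These comparisons share the lung libraries, and on TPM as deposited fewer members were lower in lung than in muscle (5, with 11% of all genes), kidney (6, with 8.07%), liver (5, with 3.91%) and cerebellum (4, with 6.86%).

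Ratios of members within a library do not depend on the scaling, apart from the 0.5 added to each value. That addition makes ratios of low genes, such as Vwf in kidney, smaller in size than plain ratios. Each member was set against the geometric mean of the other 9, as log2 ratios (mean ± SD, n = 24), with no test. In lung, Egfl7 moved from 1.42 ± 0.26 to 2.05 ± 0.62, and 20 of 24 IH libraries were above the normoxia median. In heart, Egfl7 moved from 2.03 ± 0.29 to 1.39 ± 0.27, and all 24 IH libraries were below the normoxia median. Relative to the other 9, Egfl7 was thus higher with IH in lung and lower in heart, while its own scaled change in lung was 0.00. Other members shifted too. Tie1 in lung moved from -1.15 ± 0.14 to -0.89 ± 0.10, with 24 of 24 IH libraries above the normoxia median. For Pecam1 and Emcn in heart 23 of 24 were above it. Vwf moved from -0.05 ± 0.51 to -0.45 ± 0.19 in lung and from -0.79 ± 0.62 to -1.49 ± 0.47 in liver, but from -3.34 ± 0.24 to -2.89 ± 0.31 in kidney, where all 24 IH libraries were above the normoxia median. Pecam1 moved from -0.02 ± 0.25 to 0.34 ± 0.16 in liver, and all 24 IH libraries were again above that median. Cldn5 moved from 2.77 ± 0.46 to 3.35 ± 0.49 in cerebellum, with 22 of 24 libraries above.

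Rhythm over the day was tested with a 24-hour cosine in each of the 12 groups. Of 120 tests of members 12 passed (10445 of 160309 tests, or 6.52%, did over all genes). Cldn5 passed in 4 groups, Tek in 3, Ramp2 in 2, and Cdh5, Tie1 and Esam in 1 each. Pecam1, Vwf, Emcn and Egfl7 passed in none of the 12. In normoxic lung, Ramp2 (amplitude 0.28 log2, peak at 12.7 h, adjusted p = 5.2e-04) and Cldn5 (amplitude 0.16 log2, peak at 22.3 h, adjusted p = 0.046) passed, where 9.14% of genes did. Scaled Ramp2 there was highest and lowest with 759 ± 42.3 at 13:30 and 491 ± 51.9 at 1:30 (mean ± SD, n = 3). Cldn5 was 745 ± 64.2 at 4:30 and 539 ± 7.48 at 10:30. These times were picked as the extremes of 8 and are a description only. The count of 12 was 7 on TPM as deposited, 5 on linear TPM and 3 with time as 8 levels. It rested on all replicates, with 3 without replicate 1, 4 without replicate 2 and 9 without replicate 3. The share of all genes under these other settings is not given.

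In muscle, Cldn5 passed in normoxia (amplitude 0.57 log2, peak at 1.9 h, adjusted p = 3.8e-04) and with IH (amplitude 0.45 log2, peak at 0.9 h, adjusted p = 0.013), where 6.38% and 8.83% of genes did. Its highest and lowest scaled means in normoxic muscle were 57.1 ± 13.1 at 4:30 and 22.49 ± 4.46 at 13:30. In the same tissue Ramp2 passed in normoxia (amplitude 0.21 log2, peak at 13.3 h, adjusted p = 0.035). With IH, Cdh5 (amplitude 0.28 log2, peak at 2.1 h, adjusted p = 7.0e-03), Tek (amplitude 0.27 log2, peak at 0.4 h, adjusted p = 2.3e-03) and Tie1 (amplitude 0.20 log2, peak at 2.9 h, adjusted p = 9.5e-03) passed. In heart with IH, where 4.17% of genes passed, Cldn5 (amplitude 0.63 log2, peak at 23.3 h, adjusted p = 1.1e-03) and Tek (amplitude 0.25 log2, peak at 22.47 h, adjusted p = 9.3e-03) did. Cldn5 in IH heart spanned 64.1 ± 20.8 at 4:30 and 25.8 ± 5.39 at 10:30. In kidney, Esam passed in normoxia (amplitude 0.11 log2, peak at 20.9 h, adjusted p = 0.048, background 21.0%) and Tek with IH (amplitude 0.19 log2, peak at 17.5 h, adjusted p = 0.049, background 5.74%). With IH 0 members passed in lung (4.65% of genes did), and in normoxia 0 passed in heart (0.626%). Liver and cerebellum had 0 members called rhythmic in either treatment, where all-gene shares were 17.7% and 2.63% in liver and 0% and 0.0134% in cerebellum. In normoxic cerebellum the clock genes Arntl, Dbp, Nr1d1 and Per2 did not pass either. The unadjusted p there was under 0.05 for all members except Egfl7 and Vwf, and for 3044 of 14890 genes. The lack of calls in that group therefore does not show flat levels.

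The fitted peaks of 2 members kept a narrow range over the 12 groups, as a description that includes groups with no rhythm called. Ramp2 peaked between 11.7 h and 17.2 h, with a circular mean of 13.9 h. Cldn5 had a circular mean of 23.1 h, and its farthest peak lay 4.3 h from it. No difference of rhythm between treatments passed for any member by limma, 0 of 10 in each tissue, and the lowest unadjusted p was 0.225. Over all genes 0 passed in each tissue, with 72 to 683 genes at an unadjusted p under 0.05. A member called in 1 treatment alone is therefore not shown to differ between treatments. In each tissue the count at an unadjusted p under 0.05 lay below what no difference would give on average. The 0 calls therefore do not show equal rhythms either.

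**Figure D4:**
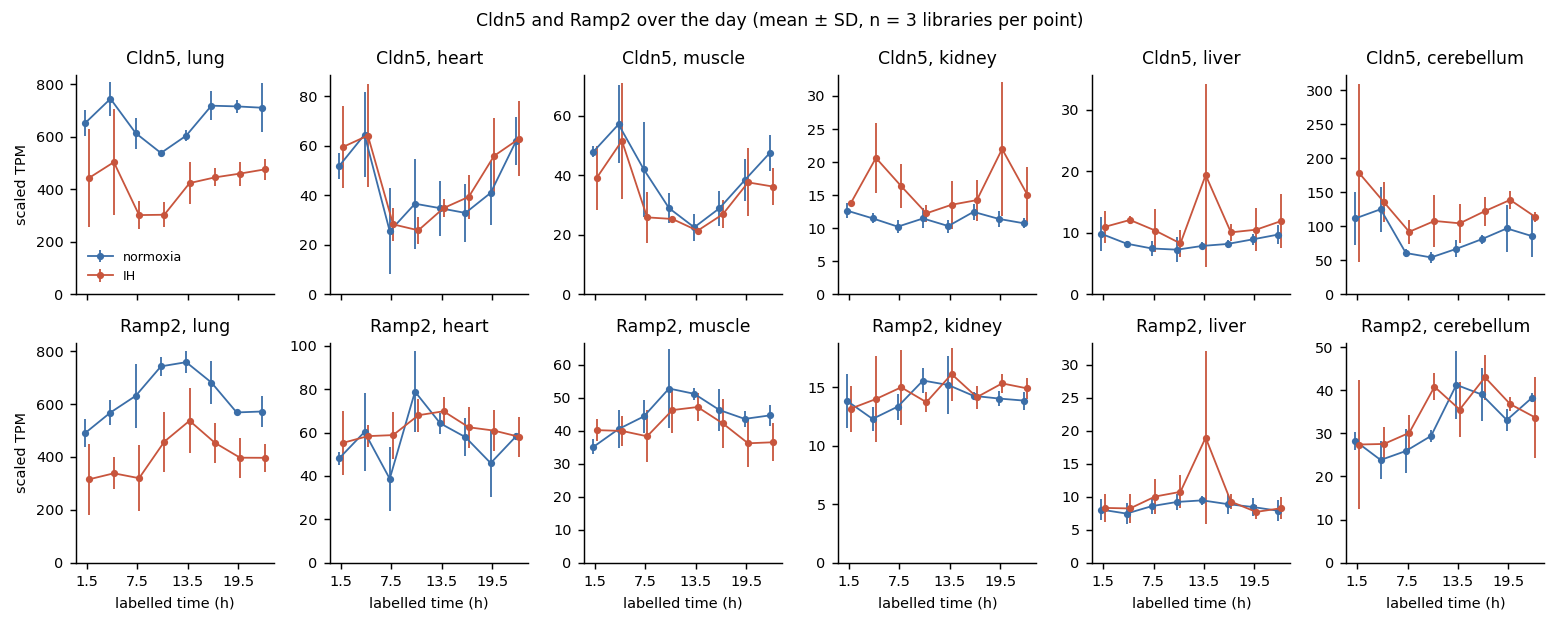
Scaled TPM of Cldn5 (top) and Ramp2 (bottom) by labelled time in the 6 tissues, as mean ± SD of 3 libraries, for normoxia (blue) and IH (red), with axes from 0. In normoxic lung Ramp2 is highest at 13:30 and Cldn5 at 4:30, and in muscle Cldn5 is lowest at 13:30 in both treatments.

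The members were also compared by how they varied between libraries once the means of treatment and time were removed. In 48 libraries per tissue, the median correlation between 2 members was 0.60 in lung, 0.74 in heart, 0.71 in muscle, 0.63 in liver, 0.68 in cerebellum and 0.22 in kidney. These points share the scaling of each library. In lung Pecam1 and Tek had the highest value (0.97) and Cdh5 and Egfl7 the lowest (-0.84). With the mean of the other members, averaged over 6 tissues, Esam (0.85) and Emcn (0.82) correlated most and Egfl7 least (0.26), the last with -0.68 in lung. Among 9876 genes outside the members, whose median was -0.04, the most similar were Cd34 (0.85), Cavin1 (0.84), Smoc2 (0.83), Rasip1 (0.82) and Islr (0.82). Cd300lg (0.82), Rhoj (0.82), Elk3 (0.80), Emp2 (0.79) and AU021092 (0.78) followed. Of these 10, Cd34, Rasip1 and Elk3 were on the endothelial lists. The ranking was not stable, since 3 of the 10 were shared in normoxia libraries alone, 6 in IH libraries alone and 3 on TPM as deposited.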

How the data were processed

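RNA was measured in 288 libraries of 6 tissues from mice in normoxia or exposed to IH. The authors quantified reads with Kallisto on Ensembl transcripts (mm10), fitted DESeq2 to estimated counts not used here, and deposited TPM per gene, which were the values used. FastQC 0.11.3, bcl2fastq, DESeq2 and kallisto are named in the submitters' processing notes. TPM keeps no depth, so the depth of each library and its precision are unknown. Groups came from the labels, and 0 columns of the tables were left unmapped.

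Libraries were scaled by the median of ratios, and log2(value + 0.5) was analysed. For treatment and rhythm the scaling ran per tissue, and genes with a mean under 1 TPM in that tissue were left out. For lung against another tissue it ran over the libraries of both, for genes of at least 1 TPM in both. For tissue levels it ran over all 144 normoxia libraries, for genes of at least 1 TPM in at least 1 tissue. Treatment, the difference of its effect between lung and each other tissue, 24-hour cosine terms, their difference between treatments, and tissue levels in normoxia were fitted with limma 3.58.1 in R 4.3.3, with a prior variance that followed the mean level and 2-sided tests. Benjamini-Hochberg adjustment ran over all genes of a fit, and calls were made at an adjusted p of 0.05, with a second rule that also required 1.5-fold. Libraries of different tissues were treated as independent, and p-values measure the spread between these samples. A permutation test shuffled treatment within time points 100000 times. Python 3.11.15, numpy 2.4.6, pandas 2.3.3 and matplotlib 3.10.9 were used. The fits were run on simulated data over 11334 to 15426 genes per tissue. There, 93.5% to 99.0% of 200 changed genes and 74.0% to 96.0% of simulated rhythms were recovered. The planted sizes are not given here, and recovery at the sizes found for the members was not tested.

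The members and gene lists were chosen with earlier results of these data known. All 10 members are named, with the 3 largest called changes per list and tissue as the pool for other named genes, and the 10 genes whose deviations from treatment and time means correlated best with the members. The alternatives were TPM as deposited, other pseudocounts and filters, left-out replicates or libraries, each replicate number alone, a replicate block, further terms for time, replicate number and genes detected, the permutation test, and a length and GC correction chosen after seeing the data.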

Additional observations from a re-analysis of the deposited data

Results flagged for a closer look

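Responses to IH differed between lung and other tissues by the test of the difference itself, for 9 members against heart, 9 against muscle, 9 against kidney, 8 against liver and 7 against cerebellum. Against heart, where the number of genes detected moved in the opposite direction to lung, the log2 change in lung minus that in heart was -1.28 for Cdh5, -1.10 for Emcn, -1.07 for Pecam1, -0.99 for Vwf, -0.94 for Tek, -0.90 for Ramp2, -0.88 for Cldn5, -0.75 for Esam and -0.67 for Tie1. The shares of all genes that differed in this direction were 48%, 41.6%, 44.5%, 41.8% and 38.0% for the 5 tissues in the same order, and no cause was tested.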

How the results depend on the processing

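With a term for detected genes, 0 members passed in heart, and changes reversed for Pecam1 (0.12), Cdh5 (0.30), Tie1 (0.094) and Tek (0.21) in lung and for Cdh5 (-0.13), Tie1 (-0.17) and Tek (-0.13) in heart. Egfl7 in lung went from 0.00 to -0.43 under this term. In single replicate numbers, the count was 3 (replicate 2) and 1 (replicate 3) in heart, 1 (replicate 1) in muscle, 0 (replicate 1) in kidney, 5 (replicate 1) and 0 (replicate 3) in liver and 0 in each for cerebellum. Replicate 3 alone reversed Egfl7 in heart (0.13). It also gave -0.48 for Egfl7 in lung and -0.20 for Emcn in kidney, where all replicates gave 0.00 and 0.02 and neither passed. Leaving out replicates in turn gave 0 to 3 members in muscle, 0 to 6 in liver, 0 to 4 in cerebellum and 3 to 9 rhythms, but 9 to 10 in lung, 5 to 6 in heart and 2 to 4 in kidney. Shares of all genes are not given for the counts in this section. A changed count therefore does not tell a change of the members from one over all genes. Without the IH library of replicate 2 at 13:30, 5 passed in liver. In cerebellum 0 passed with the length and GC correction and 3 by permutation, and in muscle 1 passed with replicate number as a term. The lung differed from muscle, liver and cerebellum for 5, 5 and 4 members on TPM as deposited, where Tie1 against muscle was 0.017, and from liver for 5 at a mean of at least 5 TPM. Of the 12 rhythms, 7 were found on TPM as deposited, 3 with time as 8 levels and 5 on linear TPM. The most similar genes shared 3, 6 and 3 of 10 in normoxia, in IH and on TPM as deposited.

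The replicate block gave 2 members in muscle and 23 rhythms, and other counts stayed within 1.5 times. The labels give no pairing by replicate number, and deviations of same-numbered libraries correlated above 0.1 in 5 to 16 of 24 pairs per tissue, so the numbers were not taken as pairs. As a hint from the data, liver (median correlation 0.22) and muscle (0.10) had the highest values, and 14 and 12 of their 24 libraries correlated best with their own number, against 5 to 9 in the other tissues. Changes of sign in members that did not pass under either setting were not counted as reversals. The causes were not tested. Without depths, no limit of detection can be given, and the number of genes detected, the scaling and the treatment cannot be separated in lung and heart.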
